A study of Saccharomyces cerevisiae W303 with 3 samples.

Results

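The genes described here encode the cytosolic translation factors of budding yeast, the proteins that help the ribosome to start, extend and release a polypeptide. They are 40 genes picked by function, found by gene name or open reading frame among the 6252 genes measured on the arrays. The rule uses no measured value, but the genes were chosen with earlier results of these data known. Of the 40 genes, 27 act in initiation, 11 in elongation and 2 in release. Identical or nearly identical copies make up the pairs TIF1 and TIF2, TEF1 and TEF2, and EFT1 and EFT2, so that the 40 genes stand for 37 distinct transcripts.

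The study compared haploid W303 cells after 40 generations and after 240 generations of continuous culture. Growth was at 30 °C with a dilution rate of 0.17 to 0.18 volumes per h, in a synthetic medium with glycerol as the main carbon source, a little glucose and yeast extract, and ampicillin and streptomycin. There were 3 cultures, each started from its own colony of the same strain. The strain carries leu2, trp1, can1, ura3, ade2 and his3 alleles at both time points. The paper reports mutations in the evolved populations that differed by culture. They were in HOG1 and MSY1 in replicate 1, in HOG1 and URE2 in replicate 2, and in MSY1 in replicate 3. The paper holds that some changes particular to a replicate could be ascribed to them. RNA came from the whole population of a culture, so a change in all cells and a change in some of them cannot be told apart. There was no culture of another strain or condition, and the time point and the age of a culture go together.

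In initiation, eIF4E binds the cap of the mRNA, eIF4G joins it to the helicase eIF4A and to the poly(A)-binding protein, and eIF2 brings the initiator tRNA to the small subunit with the help of eIF3, eIF1, eIF1A and eIF5. The exchange factor eIF2B recharges eIF2 with GTP, a step that the amino acid sensor Gcn2 controls in yeast. In elongation, eEF1A delivers aminoacyl-tRNA, eEF1B recharges eEF1A, eEF2 moves the ribosome along, eIF5A helps at difficult peptide bonds, and fungi need a further ATPase, eEF3. Release is carried out by eRF1 and eRF3. Genes of abundant elongation factors are known in yeast for transcription that follows growth together with the genes of ribosomal proteins.

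Each culture was measured on 2 arrays with exchanged dyes, and each gene had 2 spots per array. Median spot intensities were 518 to 915.5 in Cy5 and 577 to 1026.5 in Cy3 over backgrounds of 40 to 60 and 54 to 68. The measure is the log2 ratio of 240 over 40 generations, and a level is the normalized intensity of a probe, which cannot be set against that of another probe. Of all genes, 5504 were bright enough to test, and 1523 of them (27.7%) had an adjusted p under 0.05 by limma over the 3 cultures, 769 higher (14.0%) and 754 lower (13.7%) at 240 generations. Across genes, Pearson's r was 0.88 between cultures 2 and 3 but 0.71 and 0.66 between culture 1 and these 2, as a description. ACT1, the actin gene, had a log2 ratio of 0.02 ± 0.11 (SD, n = 3). The study's methods describe the strain as mating type a, but only 1 of 6 a-specific genes, STE6, was above background on all 6 arrays at both time points, whereas all 4 alpha-specific genes were.

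Of the 40 translation factor genes, 39 were tested, 2 were higher, 8 were lower and 29 did not pass, so that 25.6% were called against 27.7% of all genes. In the lower direction it was 20.5% of the factors against 13.7% of all genes, and in the higher direction 5.13% against 14.0%. The calls were unevenly spread over the steps of translation. Among the 10 elongation factor genes tested, 6 were lower and 1 was higher. These 10 genes stand for 8 distinct transcripts, and the copies TEF1 and TEF2, both lower, are counted separately here. Among the 27 initiation factor genes, 2 were lower and 1 was higher. Neither release factor gene passed, also at an unadjusted p under 0.05. The median log2 ratio was -0.56 for elongation, -0.08 for initiation and -0.10 for release, beside -0.01 for all genes tested. With each identical pair counted as 1 signal, the medians were -0.53 over 8 elongation transcripts and -0.10 over 26 initiation transcripts.

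With identical copies counted as 1 signal, the elongation median was below the initiation median in every culture. The difference was -0.51 in culture 1, -0.31 in culture 2 and -0.51 in culture 3, a mean of -0.44 ± 0.12 (SD, n = 3). An exact sign-flip test over the 3 cultures gave p = 0.25, the smallest it can give. The test therefore cannot decide, and the difference is a description. The number of calls depended on which cultures were in the fit. Of the 39 genes, 17 were called without culture 1, none without culture 2 (8 at an unadjusted p under 0.05) and 1 (HEF3) without culture 3, while the calls over all genes numbered 2492, 290 and 674. Without pairing of the time points by culture, 1 factor gene, HYP2, was called.

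**Figure D1:**
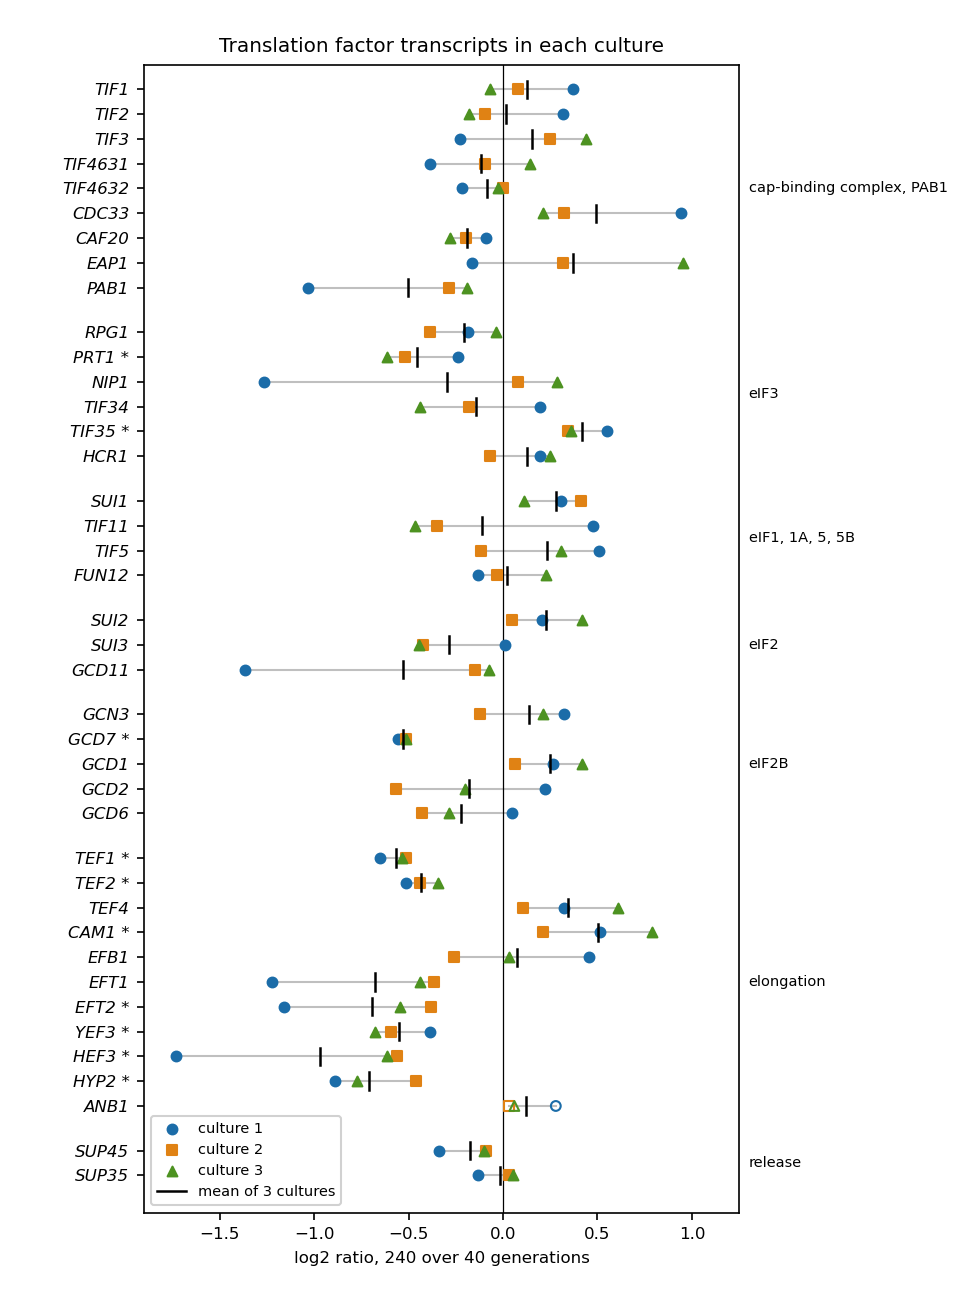
Log2 ratio of 240 over 40 generations (horizontal axis) for the 40 genes (rows, grouped by role) in cultures 1 (circles), 2 (squares) and 3 (triangles), with the mean of the 3 cultures as a black bar, asterisks for an adjusted p under 0.05 and open symbols for ANB1, which was not tested. In elongation 6 marked genes and the unmarked EFT1 lie left of 0 in all cultures, and the marked CAM1 lies right of 0. Most initiation factors cross 0, with NIP1, GCD11 and PAB1 far to the left in culture 1 alone.

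The genes of eEF1A, the GTPase that carries aminoacyl-tRNA to the ribosome and one of the most abundant proteins of the cell, were lower at 240 generations. The TEF1 probe had normalized intensities of 25252, 23979 and 19374 at 40 generations and 16065, 16794 and 13389 at 240 generations in cultures 1, 2 and 3. The levels of the time points did not overlap, and the log2 ratios were -0.65, -0.51 and -0.53, a mean of -0.57 ± 0.08 (SD, n = 3) or 32.5% less (adjusted p = 0.018). TEF2 went from 37487, 37403 and 29407 to 26244, 27587 and 23178, again without overlap, with a mean log2 ratio of -0.43 ± 0.09 (SD, n = 3, adjusted p = 0.036). TEF1 and TEF2 encode the same protein, and their probes differed by -0.13 ± 0.06 in log2 ratio. Probe sequences were not used here, so how far each probe reads the other copy is not known and the pair is read as 1 signal. Without culture 2 or culture 3 neither probe passed, with adjusted p of 0.12 and 0.077 for TEF1 and 0.22 and 0.12 for TEF2, and without pairing these were 0.097 and 0.17. TEF1 held in 11 of 14 settings and TEF2 in 8. With 240 generations in Cy5 only, TEF2 was at -0.22 (adjusted p = 0.18), and it was also lost under plain subtraction of the background (0.059) and with a trended and robust prior (0.085).

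Of the 3 genes of eEF1B, the complex that exchanges GDP for GTP on eEF1A, 1 was higher and 2 did not pass. CAM1, a gene of the gamma subunit, had intensities of 8014, 8428 and 5347 at 40 generations and 11428, 9769 and 9225 at 240 generations, with every late level above every early one. Its log2 ratios were 0.51, 0.21 and 0.79, a mean of 0.50 ± 0.29 (SD, n = 3) or a 1.42-fold rise (adjusted p = 0.049). This call lay at the threshold and held in 3 of 14 alternative settings. Without culture 2 or 3, the adjusted p was 0.11 and 0.24, and without pairing 0.19. TEF4, the other gamma subunit gene, had log2 ratios of 0.32, 0.10 and 0.61 (mean 0.35 ± 0.25, SD, n = 3, adjusted p = 0.11) and did not pass. CAM1 and TEF4 differed by -0.19, -0.11 and -0.18 (TEF4 minus CAM1) in the 3 cultures. EFB1, the catalytic alpha subunit gene, differed in sign between cultures at 0.46, -0.26 and 0.03 (adjusted p = 0.75). The mean of the eEF1A probes lay below the mean of the eEF1B probes by -1.01, -0.50 and -0.91 in cultures 1, 2 and 3. The mean of this difference was -0.81 ± 0.27 (SD, n = 3), a comparison chosen after the values were seen.

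Both genes of eEF2, the translocase that diphtheria toxin inactivates, were lower in all cultures, and most so in culture 1. EFT2 went from 35483, 26469 and 25592 to 15912, 20302 and 17520 in cultures 1, 2 and 3. Its log2 ratios were -1.16, -0.38 and -0.55, a mean of -0.70 ± 0.41 (SD, n = 3, adjusted p = 0.036). EFT1 had nearly the same values, with log2 ratios of -1.22, -0.36 and -0.44 and a mean of -0.68 ± 0.48 (SD, n = 3), but its adjusted p was 0.0503. Both genes encode the same protein, and the probes differed by 0.02 ± 0.09 in log2 ratio, so that a call for EFT2 and none for EFT1 does not show a difference between them. Levels at 240 generations lay below all levels at 40 generations for both probes. Without culture 1, both passed with smaller changes, -0.40 (EFT1, adjusted p = 0.017) and -0.46 (EFT2, adjusted p = 0.011). The EFT2 call was lost without culture 2 (adjusted p = 0.088), without culture 3 (0.063), without pairing (0.064), with no filter on dim probes (0.054) and with 240 generations in Cy3 only (0.057).

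The fungal factor eEF3, an ATPase that helps the spent tRNA to leave the ribosome, has a main gene, YEF3, and a second gene, HEF3. YEF3 had intensities of 2049, 2729 and 1474 at 40 generations and of 1567, 1810 and 922 at 240 generations. Its levels overlapped between time points because the cultures differed in level, but it was lower within each culture, at -0.39, -0.59 and -0.68 (mean -0.55 ± 0.15, SD, n = 3, adjusted p = 0.023). HEF3 went from 3912, 3392 and 2975 to 1178, 2303 and 1945. Its log2 ratios of -1.73, -0.56 and -0.61 gave the largest mean change of the 39 genes tested, -0.97 ± 0.66 (SD, n = 3, adjusted p = 0.039). In cultures 2 and 3 YEF3 and HEF3 differed by -0.03 and -0.06 in log2 ratio, but in culture 1 by 1.34. How far each of these probes reads the other gene is not known, as probe sequences were not used. Without culture 1, HEF3 was at -0.59 (adjusted p = 0.0038). The YEF3 call was lost without culture 2 (adjusted p = 0.16), without culture 3 (0.12) and without pairing (0.30), and that of HEF3 without culture 2 (0.079), without pairing (0.058), with no filter on dim probes (0.065) and with 240 generations in Cy3 only (0.054).

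HYP2 encodes the main form of eIF5A, the only protein known to carry hypusine. Its intensities were 19745, 17167 and 18348 at 40 generations and 10672, 12476 and 10720 at 240 generations. The ranges were far apart, and the log2 ratios of -0.89, -0.46 and -0.78 gave a mean of -0.71 ± 0.22 (SD, n = 3) or 38.8% less (adjusted p = 0.016). HYP2 was the called factor gene that held in most settings, 12 of 14, and was lost without culture 2 (adjusted p = 0.064) and without culture 3 (0.063). ANB1, the gene of the second form, which yeast is known to express when oxygen is scarce, was above background on 1 of 6 arrays at each time point and was not tested. Its values of 109, 103 and 123 at 40 generations and 133, 105 and 129 at 240 generations lie near background, so they set no direction.

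**Figure D2:**
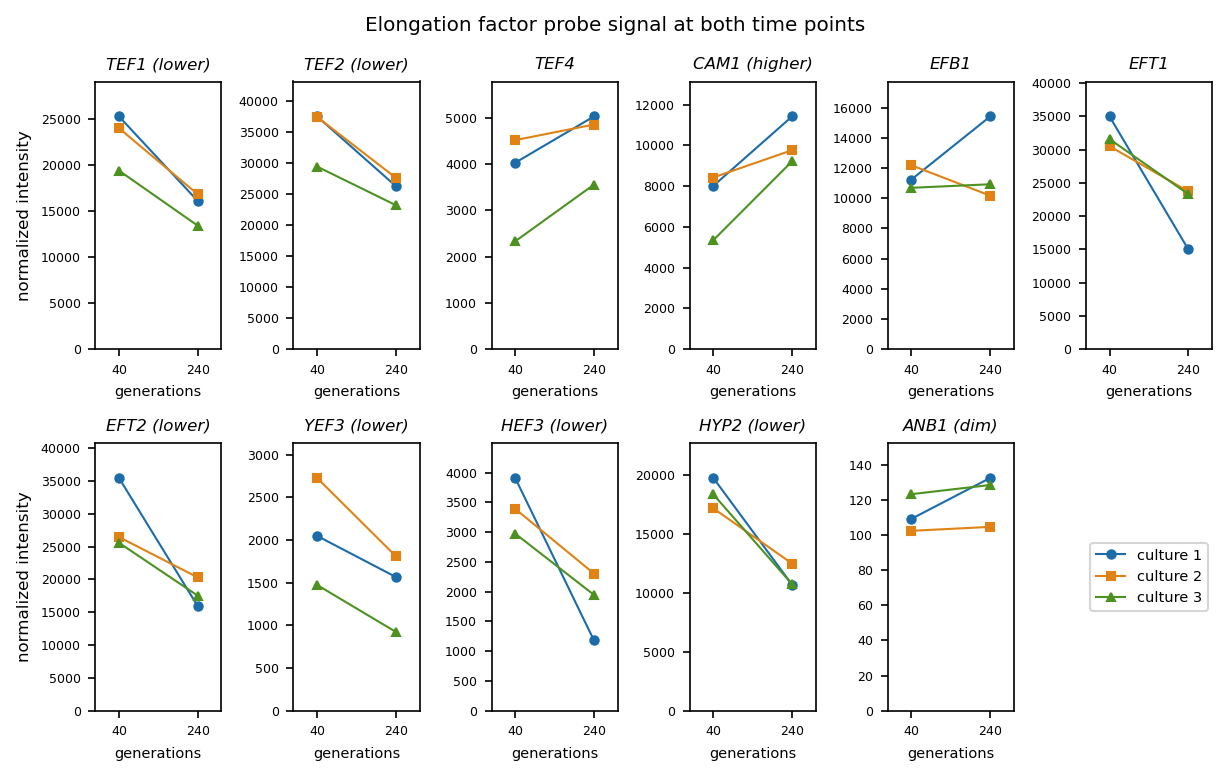
Normalized intensity (vertical axes, from 0, with a scale for each probe) of the 11 elongation factor probes at 40 and 240 generations, with lines joining the time points of cultures 1 (circles), 2 (squares) and 3 (triangles). TEF1, TEF2, EFT1, EFT2, YEF3, HEF3 and HYP2 go down in every culture, CAM1 and TEF4 go up in every culture, EFB1 goes in different directions, and ANB1 stays near background.

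The 9 genes around the cap and the poly(A) tail had no call, with 2 at an unadjusted p under 0.05, and their median log2 ratio was 0.01. CDC33, which encodes eIF4E, the cap-binding protein, came closest on the higher side. Its intensities were 2774, 2930 and 2485 at 40 generations and 5337, 3661 and 2881 at 240 generations. It was above 0 on all 6 arrays, with log2 ratios of 0.94, 0.32 and 0.21 (mean 0.49 ± 0.39, SD, n = 3, adjusted p = 0.080). On the lower side was PAB1, the gene of the poly(A)-binding protein. Its log2 ratios were -1.03, -0.29 and -0.19 (mean -0.50 ± 0.46, SD, n = 3, adjusted p = 0.097), below 0 on all 6 arrays. The PAB1 levels were 1737, 4062 and 1086 at 40 generations and 850, 3329 and 950 at 240 generations. Its 2 spots differed in brightness by up to 5.29 log2 units within an array, while their log2 ratios differed by at most 0.76.

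The eIF4A genes TIF1 and TIF2, a pair of identical protein product, had log2 ratios of 0.37, 0.08 and -0.07 and of 0.32, -0.10 and -0.18, so that both were highest in culture 1. The eIF4G scaffold genes lay near 0 on average, at -0.11 ± 0.26 for TIF4631 and -0.08 ± 0.12 for TIF4632 (SD, n = 3). TIF3, the eIF4B gene, differed in sign at -0.23, 0.25 and 0.44. CAF20 and EAP1 encode repressors that bind eIF4E, and neither passed. CAF20 had log2 ratios of -0.09, -0.20 and -0.28 (adjusted p = 0.23), with levels at 240 generations below all those at 40 generations, although the change was small. The nearest CAF20 levels of the time points were 928 and 960, and its 2 spots differed in brightness by up to 3.30 log2 units within an array. EAP1 had -0.17, 0.32 and 0.95, a spread of 1.12 between cultures (adjusted p = 0.24).

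Within eIF3, the scaffold that holds initiation factors on the small subunit, 1 of 6 genes was lower, 1 was higher and 4 did not pass. PRT1, the gene of the b subunit, had intensities of 5561, 5784 and 5448 at 40 generations and 4720, 4038 and 3560 at 240 generations. Its log2 ratios of -0.24, -0.52 and -0.61 gave a mean of -0.46 ± 0.20 (SD, n = 3, adjusted p = 0.044). TIF35, the gene of the g subunit, rose from 5354, 5776 and 5499 to 7831, 7328 and 7066, a mean log2 ratio of 0.42 ± 0.11 (SD, n = 3, adjusted p = 0.042). For both genes the levels of the time points did not overlap. TIF35 lay above PRT1 by 0.79, 0.86 and 0.98 in log2 ratio in cultures 1, 2 and 3, a mean gap of 0.87 ± 0.10 (SD, n = 3), and this pair was chosen after its values were seen. Without culture 2 or 3, the adjusted p was 0.24 and 0.22 for PRT1 and 0.20 and 0.15 for TIF35, and without pairing 0.14 and 0.13. When arrays were median-centred and no loess was applied, TIF35 was at 0.26 and did not pass (adjusted p = 0.12). PRT1 held in 7 of 14 settings and TIF35 in 6, and both were also lost under plain subtraction, with the authors' log2 ratios, with 240 generations in Cy3 only and with a trended and robust prior.

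NIP1, the gene of the c subunit of eIF3, had the widest range between cultures of the 39 genes. Its intensities were 2513, 1912 and 2654 at 40 generations and 1047, 2022 and 3240 at 240 generations. The log2 ratios of -1.26, 0.08 and 0.29 span 1.55 units, and the mean of -0.30 ± 0.84 (SD, n = 3, adjusted p = 0.49) describes no culture. The other eIF3 genes were closer to 0, with RPG1 (a subunit) at -0.20 ± 0.17, TIF34 (i subunit) at -0.14 ± 0.32 and HCR1 (j subunit) at 0.12 ± 0.17 (SD, n = 3).

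The 4 genes of factors that act at the start codon had no call, also at an unadjusted p under 0.05. SUI1, the gene of eIF1, which guards start codon choice, was above 0 in every culture at 0.31, 0.42 and 0.11 (adjusted p = 0.12). TIF11, the gene of eIF1A, had 0.48, -0.35 and -0.47, so culture 1 was opposite to the other two. TIF5, the gene of the GTPase-activating protein eIF5, had 0.51, -0.12 and 0.31. FUN12, the gene of the subunit-joining GTPase eIF5B, had -0.13, -0.03 and 0.23.

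The 3 subunit genes of eIF2 did not pass either, also unadjusted. GCD11, which encodes the GTP-binding gamma subunit, had intensities of 4309, 3874 and 3924 at 40 generations and 1670, 3492 and 3721 at 240 generations. All late levels lay below all early ones, but the log2 ratios of -1.37, -0.15 and -0.08 came mostly from culture 1, and the mean of -0.53 ± 0.73 did not pass (SD, n = 3, adjusted p = 0.18). SUI2, the gene of the alpha subunit that Gcn2 phosphorylates, had 0.21, 0.05 and 0.42 (adjusted p = 0.21). SUI3, the beta subunit gene, had 0.01, -0.43 and -0.44 (adjusted p = 0.16).

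Of the 5 subunit genes of eIF2B, GCD7 was lower and the other 4 did not pass. The GCD7 probe, for the regulatory beta subunit, went from 470, 474 and 588 to 320, 332 and 412. The log2 ratios of -0.56, -0.51 and -0.51 had a spread between cultures of 0.02 (SD, n = 3) around a mean of -0.53, or 30.6% less (adjusted p = 0.020). The 2 arrays of a culture lay farther apart, at -0.39 and -0.72, -0.44 and -0.59, and -0.47 and -0.56 in cultures 1, 2 and 3. The call held in 11 of 14 settings and was lost without culture 2 (adjusted p = 0.14), without culture 3 (0.096) and without pairing (0.12). The other regulatory subunit genes were GCN3 (alpha) at 0.14 ± 0.23 and GCD2 (delta) at -0.18 ± 0.39, and the catalytic subunit genes were GCD1 (gamma) at 0.25 ± 0.18 and GCD6 (epsilon) at -0.22 ± 0.24 (SD, n = 3). Without culture 1, GCD2 and GCD6 passed on the lower side, as did TIF11 and SUI3, while TIF3 and EAP1 passed on the higher side.

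The release factor genes stayed close to 0 in cultures 2 and 3. SUP45, which encodes eRF1, the protein that reads stop codons, had log2 ratios of -0.34, -0.09 and -0.10 (adjusted p = 0.28). SUP35, which encodes the GTPase eRF3 and is known for its prion form, had -0.13, 0.03 and 0.05 (adjusted p = 0.92).

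Across the 39 genes tested, 22 had the same sign in all 3 cultures (56.4%), beside 63.9% of all genes tested, and in elongation 9 of 10 had. Levels at 240 generations were all below those at 40 generations for 11 of the 39, where 17.0% of all genes were, and all above for 2, CAM1 and TIF35, where 15.4% of all genes were. In elongation 6 of 10 were all below, among them both copies of the eEF1A and eEF2 genes. The counts of this paragraph take such copies as separate genes.

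Culture 1 stood apart for several factor genes, as it did over all genes. HEF3, NIP1 and GCD11 differed at least 2-fold there from the mean of cultures 2 and 3. This is 7.69% of the 39 genes beside 4.20% of all genes. No factor gene differed so far in culture 2 or 3, where the shares of all genes were also lower, at 0.436% and 1.24%. HEF3 and GCD11 were lower in culture 1 than elsewhere by more than a factor of 2, and NIP1 was lower there and above 0 in the other cultures. EFT1, EAP1, PAB1 and EFT2 followed on the same side, by 0.82, 0.80, 0.79 and 0.69 log2 units below the mean of the other cultures, while TIF11 and CDC33 had higher values in culture 1. Each culture is a single sample of its kind, so these differences have no test. Whether they follow gene length or the mutations reported for a culture was not tested.

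**Figure D3:**
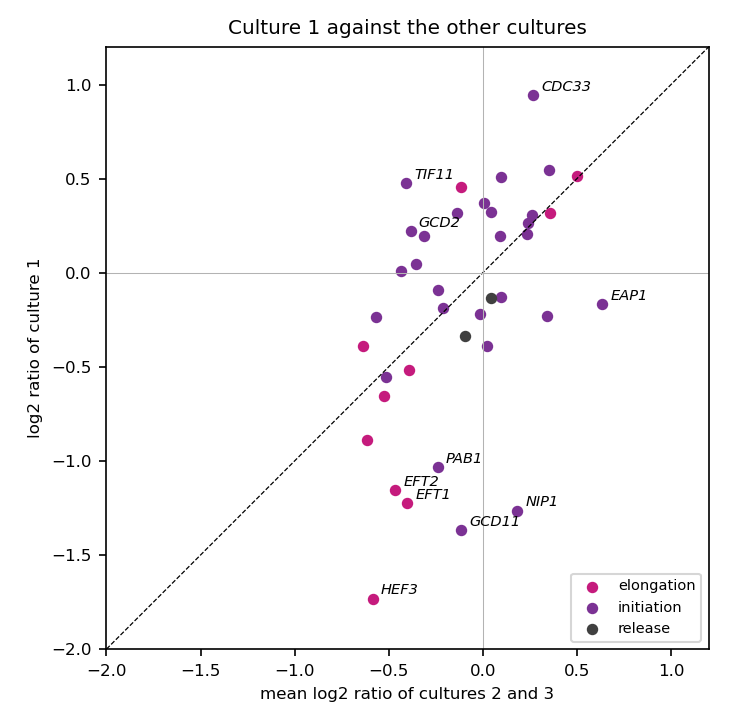
Log2 ratio of 240 over 40 generations in culture 1 (vertical axis) against the mean of cultures 2 and 3 (horizontal axis) for the 39 genes tested, colored by stage, with equality as a dashed line and names for genes farthest from it. HEF3, NIP1 and GCD11 lie lowest under the line, and CDC33 and TIF11 lie above it.

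Other genes of the protein synthesis machinery give the setting for these values. Of 137 cytosolic ribosomal protein genes tested, 71 were lower, which is 51.8% beside 13.7% of all genes tested. Of the 137, none was higher (1 at an unadjusted p under 0.05), 66 did not pass, and the median log2 ratio was -0.60. Among them RPS8A had -2.02, -1.92 and -2.69 and RPL24B -1.38, -1.25 and -1.69 in cultures 1, 2 and 3, and many of these genes have a near-identical copy. The median of the ribosomal protein genes was -0.27, -0.67 and -0.78 in cultures 1, 2 and 3, and that of the elongation factor genes was -0.58, -0.41 and -0.49. With identical copies as 1 signal, the elongation medians were -0.49, -0.42 and -0.47, close to each other. Without culture 2 or 3, the ribosomal protein calls numbered 14 and 32, and 121 without culture 1.

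Of 22 cytosolic tRNA synthetase and cofactor genes, 7 were lower and 2 were higher, with a median of -0.16. The share called was 40.9%, beside 27.7% of all genes tested. The arginyl-tRNA synthetase gene YDR341C fell by 0.91 ± 0.09 and the aspartyl-tRNA synthetase gene DPS1 by 0.81 ± 0.45 on the log2 scale, while ARC1, which encodes a tRNA-binding cofactor of synthetases, rose by 0.66 ± 0.39 (SD, n = 3). MES1, the gene of the methionyl-tRNA synthetase that binds Arc1, fell by 0.49 ± 0.19. Without culture 2, no gene of this list passed (5 at an unadjusted p under 0.05), and without culture 3, 2 did.

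Of 44 genes tested that assist or regulate translation, 9 were lower and 1, MAP1, which encodes a methionine aminopeptidase, was higher, and the median was -0.19. The share called was 22.7%, beside 27.7% of all genes tested. Among those that passed, the largest mean change was that of SSB1, a ribosome-bound Hsp70 chaperone gene with a near-identical copy, SSB2. SSB1 had log2 ratios of -0.99, -1.03 and -1.03 (mean -1.02 ± 0.03, SD, n = 3, adjusted p = 0.0043), and it passed without each culture in turn. Next were TIF6, which encodes an anti-association factor of the large subunit (-0.93 ± 0.26), NEW1, the gene of an ATPase related to eEF3 (-0.72 ± 0.21), and DOM34, the gene of a ribosome rescue factor related to eRF1 (-0.64 ± 0.21, SD, n = 3). The lower genes also included GCN1, an activator of the Gcn2 kinase, and RLI1, a ribosome recycling ATPase. Without culture 2 or culture 3, 2 and 4 genes of this list passed, and NEW1 and DOM34 did not pass without culture 2 (adjusted p = 0.11 and 0.14), nor DOM34 without culture 3 (0.087).

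Of 51 genes of large subunit assembly, 10 were lower and 2, LOC1 and IPI1, were higher, and the median was -0.05. The share called was 23.5%, beside 27.7% of all genes tested. LOC1 was at 1.01 ± 0.52 and IPI1 at 0.99 ± 0.22, while NSA2 was at -0.95 ± 0.30 (SD, n = 3). Of these, IPI1 alone passed without each culture in turn, as LOC1 and NSA2 were lost without culture 2 (adjusted p = 0.088 and 0.068), where 2 genes of the list passed. TIF6, named above, is on this list as well. It also passed without culture 1, 2 or 3 (adjusted p = 0.0014, 0.042 and 0.027).

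**Figure D4:**
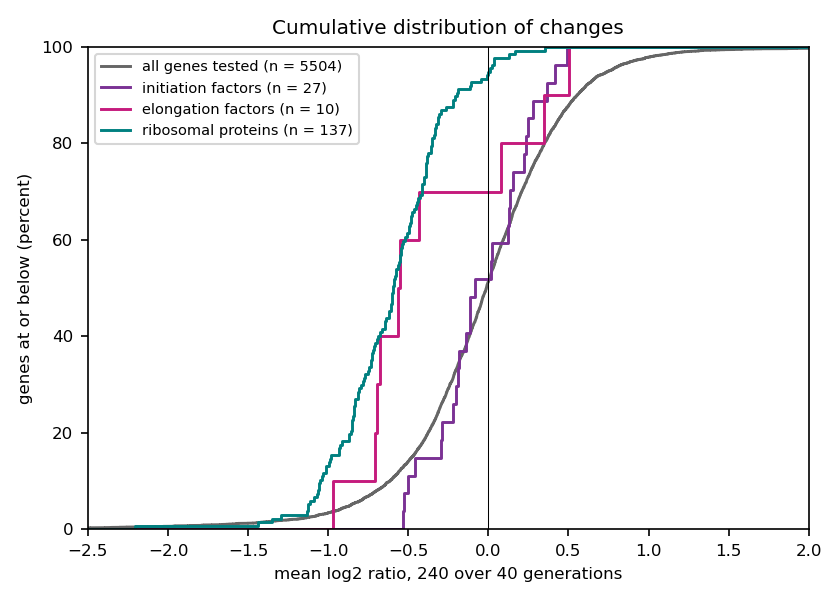
Percent of genes at or below a given mean log2 ratio of 240 over 40 generations, for the 5504 genes tested (grey), 27 initiation factors (purple), 10 elongation factors (pink) and 137 cytosolic ribosomal proteins (teal). The initiation factors follow all genes near 0, whereas the elongation factors, apart from CAM1, TEF4 and EFB1, lie with the ribosomal proteins on the lower side.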

How the data were processed

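Total RNA of 3 cultures at 40 and 240 generations was hybridized in pairs to 6 Agilent arrays of 2 colors, with a dye swap in each culture. In the deposited scanner files, made by the authors with GenePix Pro, each spot has a median intensity and a local background, without normalization. A deposited table of log2 ratios that the authors calculated in Acuity, by a normalization not given in the sources used here, served as an alternative. In it, exact zeros were treated as missing, and none fell on a translation factor gene.

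In R 4.3.3 with limma 3.58.1, background was corrected with normexp (offset 50), each array was normalized by loess with control spots at weight 0, and values were averaged over the 2 spots of a gene and over both arrays of a culture, which share their RNA. Levels are channel intensities after Aquantile normalization, which shifts an array's overall brightness. A gene was tested if it was above background (by over 2 background SDs) at one time point at least on 4 of 6 arrays. By lmFit and eBayes, with 3.71 prior degrees of freedom, the 3 ratios of each of 5504 genes were tested against 0, with Benjamini-Hochberg adjustment at 0.05. All adjusted p values are limma's. The time points are paired by culture, as both come from 1 culture and share an array. The script was tested on simulated data. The number of cultures limits the precision. The p values rest on the spread between cultures, which eBayes moderates with the spread of all genes tested. Loess assumes that most genes of a given brightness do not change.

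The members and the lists were chosen with earlier results of these data known. Named are every translation factor gene, ACT1, and up to 4 genes of each of 4 other lists that passed with the largest mean change; MAP1, GCN1, RLI1 and SSB2 were named after their values were seen. Gene names came from the files and from RefSeq, and 4 genes with emptied lines were not used. Chromosome positions, probe, promoter and protein sequences were not analysed here. The alternatives were no background correction or plain subtraction, median centring, leaving out spots not found, no filter on dim probes, the authors' log2 ratios, each dye orientation by itself, a prior with trend and robust fit, time points without pairing, leaving out each replicate, and, chosen after seeing the data, the brighter spot only.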

Additional observations from a re-analysis of the deposited data

How the results depend on the processing

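Of the 39 translation factor genes tested, 10 passed, 2 higher and 8 lower, with 6 elongation factor genes lower and 3 initiation factor genes called. With no background correction, with spots not found left out and with no filter on dim probes, 1 was higher. Plain subtraction, the trended and robust prior and the authors' log2 ratios left 0 higher and 1 initiation factor gene called, and the first 2 of these left 6 calls in all. Median centring left 0 higher and moved the members' median from -0.11 to -0.21. It also moved the median of all genes from -0.01 to -0.07 and the calls over all genes from 769 higher and 754 lower to 650 and 997. The elongation median moved from -0.56 to -0.75, with 7 genes lower, and the ribosomal protein calls from 71 to 100. With median centring TEF1 was at -0.80, TEF2 at -0.70 and HYP2 at -0.90. EFT1 was at -0.93 and passed (adjusted p = 0.019), while CAM1 was at 0.33 and did not pass (0.12). With 240 generations in Cy3 only, 5 were lower and 1 initiation factor gene was called. With the replicate block removed, that is, without pairing of the time points by culture, 1 gene was called, 0 higher and 1 lower, 1 elongation factor gene lower and 0 initiation factor genes, and 432 of all genes. With each replicate left out, calls ranged from 0 to 17, higher ones from 0 to 4, lower ones from 0 to 13, elongation factor genes lower from 0 to 7 and initiation factor genes from 0 to 9, with the lowest counts without replicate 2 and the highest without replicate 1. Leaving out a culture lowers the degrees of freedom, and the cause of the difference between cultures was not tested. The members' median stayed at -0.11 in these fits. No value called in the main fit or in the setting set beside it had its sign changed. Of 419 values called in neither, 25 had another sign. Among these was TIF11, which passed at -0.41 without replicate 1 but was at 0.06 without replicate 3. The brighter spot alone gave 11 calls, EFT1 being added.

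The 3 cultures limit what can be called, and dim probes such as ANB1 set no direction. Spots of 1 probe differed over 2-fold in brightness for 4.43% to 17.2% of probes per array, in both channels.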
